A study of Drosophila melanogaster with 16 samples.

Results

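The wing imaginal discs of scrib mutant larvae were compared with the brain complexes of larvae of the same genotype, in 3 arrays per tissue, 6 of the 16 arrays of the series. These 6 arrays were chosen by their labels, and every probe set of the array was read on them. Both tissues were dissected from larvae in the third instar at day 9 after egg deposition and carried the allele pair scrib1/scrib2, so genotype and age were shared and the tissue differed. For reference, the same difference was taken in lgl mutant larvae (alleles lgl27S3/lglE2S31, a null combination per the labels, day 9, 3 arrays per tissue) and in wild-type larvae (day 5, 2 arrays per tissue). The labels call both mutant tissues tumours and the wild-type tissues free of tumours. They name no driver or transgene, and they say neither how many animals an array holds nor which organs stayed attached to a brain complex. Total RNA was labelled as biotin cRNA for single-colour Affymetrix arrays, and all values are log2 signals.

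Scribbled, the product of scrib, is a scaffold protein at the basolateral side of epithelial cells that works with the products of l(2)gl and dlg1 to keep apical and basal membrane apart. Larvae without it stay in the third instar, and their imaginal discs, single-layered epithelial sacs that form the adult wing and thorax, overgrow into disorganised masses. The larval brain is built differently: stem cells called neuroblasts divide asymmetrically to give neurons and glia, and neurons signal through synapses and neuropeptides.

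Between 40.11% and 40.32% of the 18952 probe sets reached a log2 value of 4 on each scrib disc array, against 42.43% to 42.93% on each scrib brain array. Probe sets at or above 4 on at least 2 of the 16 arrays were tested, 8819 in all. The pooled SD within groups was 0.36 log2 for scrib discs and 0.45 for scrib brains, 0.33 to 0.34 for the lgl groups and 0.65 to 0.66 for the wild-type groups. RNA integrity was read from the eIF-4a control probe sets, whose 3′ signal exceeded the 5′ signal by 1.78 log2 on average in scrib discs and 1.79 in scrib brains, against 2.22 and 2.24 in lgl discs and brains and 2.32 and 2.51 in wild-type discs and brains. The same measure of the GAPDH control ran from 0.306 to 0.367 in scrib discs and from 0.447 to 0.873 in scrib brains, with no overlap, and that of actin averaged 0.924 in scrib discs and 0.967 in scrib brains. The part of these control differences in the results was not tested. Some libraries stood apart in single marker lists: scrib brain replicate 3 read highest for fat body and salivary gland genes, scrib brain replicate 2 for several disc genes and for the crystal cell enzymes PPO1 and PPO2, and scrib disc replicate 3 for several neuroblast genes. The number of arrays limits the precision, and since the labels do not say that replicates came from separate cultures, p-values measure only the spread between these samples, which may be technical.

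In scrib larvae limma called 4073 of 8819 probe sets (46.2%), with 1776 (20.1%) higher and 2297 (26.0%) lower in discs, at an adjusted p below 0.05. Of the called probe sets, 1465 differed at least 4-fold. The 3 disc and 3 brain arrays did not overlap for 5563 probe sets (63.1%), 2400 (27.2%) of them higher and 3163 (35.9%) lower in discs. Taken by gene, with the brightest probe set standing for each of 7213 genes, 3376 (46.8%) were called, 1447 (20.1%) were higher and 1929 (26.7%) lower in scrib discs, and the median log2 difference of discs minus brains was -0.10. Leaving out scrib disc replicate 3, scrib brain replicate 2 or scrib brain replicate 3 gave 3581, 3817 and 3561 called probe sets. In bulk tissue, fewer cells of a type and less RNA per cell cannot be told apart in any of these differences.

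The array holds a pair of tested probe sets for scrib, and they differed in opposite directions. The brighter one read 10.34, 10.10 and 9.89 log2 on the scrib disc arrays, against 7.24, 7.88 and 7.78 on the scrib brain arrays. It was 5.57-fold higher in scrib discs (log2 difference 2.48 ± 0.27 SE, adjusted p = 6.65e-06), and the groups did not overlap. The same difference was 2.58 log2 in wild type and 2.67 in lgl larvae. The dimmer probe set of scrib read 5.25, 5.42 and 5.39 in scrib discs, against 9.10, 8.31 and 8.73 in scrib brains, 10.3-fold lower in scrib discs (log2 difference -3.36 ± 0.40 SE, adjusted p = 1.23e-05), with differences of -2.73 in wild type and -3.11 in lgl larvae. No single direction can be given for the gene, in any of the 3 genotypes. Whether scrib1 and scrib2 lower the transcript is not stated in the labels, so this level checks no genotype. The partner gene l(2)gl read 10.90, 10.72 and 10.70 in scrib discs, against 9.44, 9.60 and 9.05 in scrib brains, a log2 difference of 1.41 ± 0.58 SE that did not pass the test (adjusted p = 0.0632). Its groups did not overlap, and a fit on the 6 scrib arrays alone called it (adjusted p = 0.000747).

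The genes with the largest higher values in scrib discs included a hormone, a wing factor, a growth factor and cuticle genes. Ilp8, a relaxin-like hormone that damaged or overgrown discs release to delay metamorphosis, read 11.95, 11.91 and 12.23 log2 in scrib discs, against 4.90, 6.85 and 3.77 in scrib brains. All 3 scrib discs were near 12, and scrib brain replicate 2 was the highest of the brains. The fold was at least 109.6-fold (log2 difference 6.85 ± 0.67 SE, adjusted p = 2.15e-06). The POU factor nub, which marks the wing pouch, read 10.59, 10.85 and 10.80 in scrib discs, against 4.13, 4.70 and 3.69 in scrib brains (at least 88.7-fold, log2 difference 6.57 ± 0.26 SE, adjusted p = 1.52e-09). The fibroblast growth factor bnl, the ligand that guides tracheal branches, read 9.73, 9.32 and 9.85 in scrib discs, against 2.81, 3.11 and 2.64 in scrib brains, where all 3 arrays lay below 4 (at least 49.6-fold, log2 difference 6.78 ± 0.35 SE, adjusted p = 8.01e-09). The receptor gene grnd, whose product binds Eiger, read 10.30, 9.99 and 10.33 in scrib discs, against 4.04, 6.58 and 4.58 in scrib brains (35.3-fold, adjusted p = 1.09e-06). The NADPH oxidase gene Nox (at least 37.6-fold) and the ecdysone-inactivating cytochrome Cyp18a1 (at least 43-fold) were also higher in scrib discs. The other 6 of these 12 leaders, Cpr64Ac, Cpr66D, Cpr12A, Cda4, Cht5 and neo, make or modify cuticle or apical matrix.

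**Figure D1:**
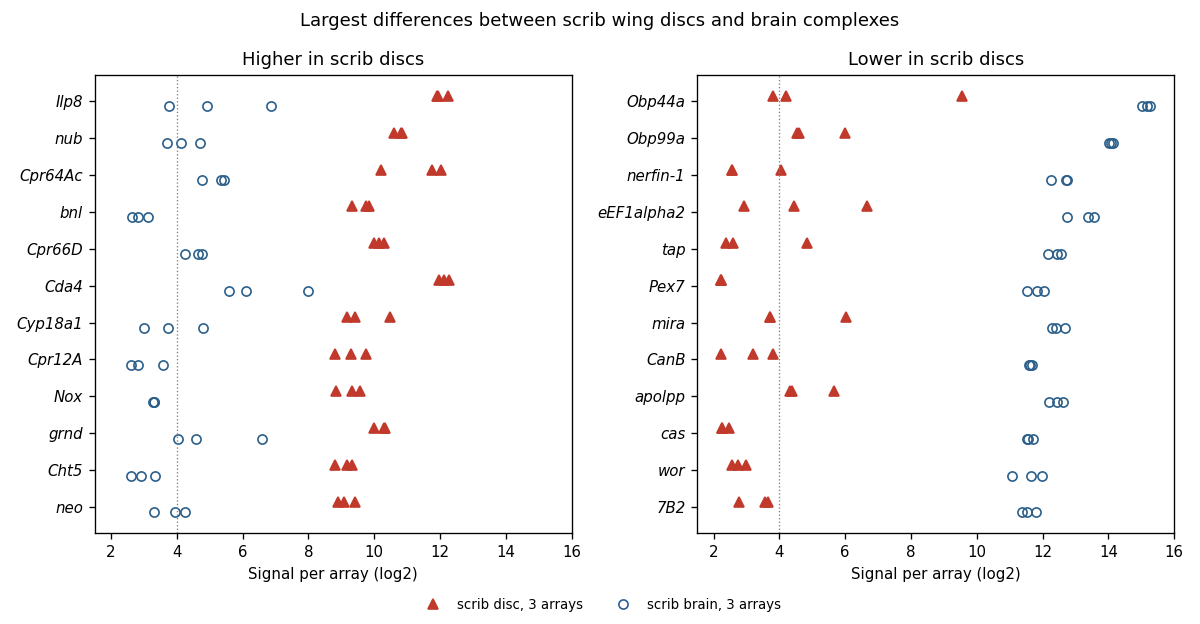
Log2 signal of the 12 genes with the largest higher and the 12 with the largest lower called differences, on each of the 3 scrib disc arrays (filled triangles) and the 3 scrib brain arrays (open circles). The dotted line marks the log2 value of 4, below which differences are bounds. The 24 genes were chosen among called genes whose disc and brain arrays do not overlap. For Obp44a the third disc array stands above the other disc arrays, at 9.56.

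The genes with the largest lower values in scrib discs included odorant-binding protein, neuroblast and neuronal genes. Obp44a, of the odorant-binding protein family, read 3.82, 4.20 and 9.56 log2 in scrib discs, against 15.01, 15.17 and 15.26 in scrib brains. The third scrib disc array lay far above the other two, and all 3 brains were near 15 (at least 598-fold lower in scrib discs, log2 difference -9.29 ± 1.72 SE, adjusted p = 0.000595). Obp99a, of the same family, read 4.59, 4.52 and 5.98 in scrib discs, against 14.03, 14.13 and 14.09 in scrib brains (529.8-fold lower, log2 difference -9.05 ± 0.49 SE, adjusted p = 1.35e-08). The zinc-finger gene nerfin-1, which keeps neurons differentiated, read 2.55, 2.55 and 4.05 in scrib discs, against 12.73, 12.27 and 12.71 in scrib brains (at least 376-fold lower). The elongation factor gene eEF1alpha2 read 4.46, 2.93 and 6.68 in scrib discs, against 13.55, 12.75 and 13.37 in scrib brains (at least 289-fold lower). The proneural factor tap (at least 276-fold), the peroxisomal import gene Pex7 (at least 222-fold), the calcineurin subunit CanB (at least 197-fold), the lipoprotein gene apolpp (197-fold) and the prohormone convertase partner 7B2 (at least 189-fold) were lower too, and the remaining leaders mira, cas and wor are described with the neuroblast genes.

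Of the genes named here, 22 had more than 1 tested probe set. In 12 of them all probe sets were called in 1 direction, in 2 none was called, in 5 only some were called (Phm, Sh, ct, dlg1 and nub), and in 3 the calls were opposite (scrib, Nrg and trol).

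Genes were then grouped by lists of known role, each with the members that passed the filter. A member that passed only through the tissue where it is bright had to differ, so these counts describe the lists and are set beside the 20.1% higher and 26.7% lower of all genes. Among wing disc patterning factors, 27 of 29 listed genes were tested, of which 18 were higher and 5 lower in scrib discs, with a median log2 difference of 1.91. The wing selector vg read 9.67, 9.48 and 9.08 in scrib discs, against 4.88, 4.96 and 4.79 in scrib brains (23.1-fold, log2 difference 4.53 ± 0.31 SE, adjusted p = 7.74e-08). The posterior selector en read 8.33, 8.05 and 8.15 in scrib discs, against 4.30, 4.88 and 4.26 in scrib brains (13-fold), and its paralogue inv was 8.51-fold higher. The T-box factor Doc3 read 5.80, 5.65 and 5.26 in scrib discs, against 2.77, 3.23 and 2.56 in scrib brains, all below 4 (at least 2.97-fold, adjusted p = 3.91e-07). The dorsal selector ap was 3.76-fold higher in scrib discs, at 11.60, 11.67 and 11.23, against 9.46, 9.82 and 9.49 in scrib brains. The 5 members lower in scrib discs were Sp1 (at least 5.04-fold), bab2 (3.25-fold), ct (2.42-fold), bi (1.44-fold) and bab1 (at least 1.12-fold), transcription factors with roles in limb, wing margin or optic lobe patterning. That count was 3 without scrib disc replicate 3 and 3 without scrib brain replicate 3: bi was lost without any of scrib brain replicates 1 and 3 and scrib disc replicates 2 and 3 (adjusted p = 0.0585 to 0.184), and bab1 was lost without any 1 of the 6 arrays other than scrib brain replicate 2 (adjusted p = 0.0666 to 0.152). The call of ct was lost with quantile normalization (adjusted p = 0.12).

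Signals and targets of the Hedgehog, Wingless, Dpp and Notch pathways, the morphogens and cell-contact signals that pattern the disc, had 14 tested genes of 26. 13 were higher and 1 lower in scrib discs (median log2 difference 1.90). The ligand hh read 7.32, 7.42 and 7.04 log2 in scrib discs, against 2.67, 3.14 and 2.82 in scrib brains (at least 9.57-fold, log2 difference 4.38 ± 0.28 SE, adjusted p = 5.38e-08). The BMP ligand dpp read 9.55, 9.57 and 8.86 in scrib discs, against 5.78, 6.78 and 5.38 in scrib brains, where replicate 2 was highest (10.2-fold, adjusted p = 1.48e-06). The Wnt ligand Wnt6 read 7.38, 7.40 and 7.31 in scrib discs, against 2.48, 3.67 and 2.24 in scrib brains (at least 10.3-fold). The secreted Dpp modulator magu read 11.35, 11.25 and 11.57 in scrib discs, against 8.71, 8.88 and 8.71 in scrib brains (6.18-fold, adjusted p = 8.98e-09). The exception was the Notch target E(spl)m4-BFM, which was 11.2-fold lower in scrib discs, at 6.29, 5.19 and 4.16, against 8.80, 8.68 and 8.62 in scrib brains, while the related target E(spl)malpha-BFM was 3.06-fold higher.

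Junction and polarity genes, which hold epithelial cells together and orient them, were mostly higher in scrib discs. Of 21 tested genes of 26, 13 were higher and 2 lower in scrib discs, with a median log2 difference of 1.20. The claudin-like septate junction gene sinu read 12.83, 12.80 and 12.66 in scrib discs, against 9.67, 10.54 and 9.71 in scrib brains (6.93-fold, log2 difference 2.79 ± 0.20 SE, adjusted p = 1.27e-07). A second claudin-like gene, kune, was 4.23-fold higher and the septate junction adhesion gene Cont 4.6-fold higher. Among planar polarity genes, the giant cadherin ds read 10.69, 10.36 and 10.63 in scrib discs, against 6.95, 7.35 and 6.38 in scrib brains (12.7-fold), and the Golgi kinase fj that modifies it was 7.85-fold higher. The planar polarity cadherin stan, also an axon guidance molecule, was 3.9-fold lower in scrib discs, at 8.39, 8.60 and 8.71, against 10.71, 10.18 and 10.72 in scrib brains. The catenin p120ctn was 1.48-fold lower. The scaffold dlg1, the third gene of the scrib module, read 7.74, 7.96 and 6.19 in scrib discs and 7.61, 7.34 and 7.42 in scrib brains, with overlapping arrays (adjusted p = 0.776). A dimmer probe set of dlg1 was called, at 6.92, 7.14 and 7.03 in scrib discs, against 3.17, 3.19 and 3.11 in scrib brains (at least 8.17-fold higher, adjusted p = 3.71e-08). The septate junction gene cora also overlapped, at 11.25, 11.24 and 10.78 in scrib discs and 10.71, 11.07 and 10.88 in scrib brains.

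Every one of the 13 tested genes of 19 in the cuticle, apical matrix and trachea list was higher in scrib discs, with a median log2 difference of 3.78. The zona pellucida gene dpy, a giant matrix protein that anchors wing cells to cuticle, read 7.33, 7.06 and 7.48 in scrib discs, against 3.04, 2.75 and 3.91 in scrib brains (at least 9.77-fold, adjusted p = 2.21e-06). The chitin-organising gene knk read 9.06, 8.81 and 9.06 in scrib discs, against 3.99, 5.36 and 4.57 in scrib brains (at least 20.2-fold). The chitin-binding genes obst-B (23.6-fold) and Gasp (8.97-fold) were also higher. The cuticle protein gene Cpr64Ac read 11.74, 10.20 and 12.04 in scrib discs, against 5.34, 5.43 and 4.77 in scrib brains (70.9-fold), and Cpr66D was 48.2-fold higher. Adult muscle precursors, mesodermal cells that lie on the disc epithelium, were represented by 7 tested genes of 11, of which 5 were higher and 0 lower in scrib discs. Their defining factor twi read 7.61, 8.21 and 7.44 in scrib discs, against 3.14, 3.69 and 2.29 in scrib brains (at least 13.5-fold, log2 difference 4.72 ± 0.38 SE, adjusted p = 3.86e-07), and the FGF receptor htl was 3.82-fold higher.

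The JNK pathway, a stress kinase cascade that scrib mutant discs are known to switch on, had 16 tested genes of 20, with 11 higher and 2 lower in scrib discs (median log2 difference 1.53). Besides Ilp8 and grnd, the filamin gene cher read 11.97, 11.89 and 12.09 in scrib discs, against 8.66, 9.85 and 9.38 in scrib brains (6.44-fold, log2 difference 2.69 ± 0.24 SE, adjusted p = 8.88e-07). The Jun gene Jra read 10.61, 10.71 and 10.64 in scrib discs, against 9.02, 9.17 and 9.10 in scrib brains (2.94-fold, adjusted p = 1.22e-06). The ligand of the pathway went the other way. The tumour necrosis factor egr read 4.20, 5.59 and 4.59 in scrib discs, against 9.15, 9.00 and 9.36 in scrib brains, 20.7-fold lower in discs (log2 difference -4.38 ± 0.33 SE, adjusted p = 2.02e-07), while its receptor gene grnd was higher there. The kinase gene bsk, which encodes JNK, was 1.84-fold lower. The phosphatase puc, a feedback target of the pathway, read 9.99, 9.99 and 9.47 in scrib discs and 9.99, 9.79 and 10.04 in scrib brains and overlapped (adjusted p = 0.698), as did the kinase hep (adjusted p = 0.939).

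Basement membrane genes lay on both sides. Of 12 tested genes of 15, 5 were higher and 5 lower in scrib discs. The laminin gene LanA read 12.23, 12.19 and 11.92 in scrib discs, against 10.06, 10.46 and 10.55 in scrib brains (3.38-fold, log2 difference 1.76 ± 0.17 SE, adjusted p = 2.01e-06), and the protease inhibitor Timp (4.12-fold) and the glypican dlp (2.45-fold) were higher as well. The metalloprotease Mmp2 read 2.94, 2.73 and 3.21 in scrib discs, all below 4, against 5.69, 5.85 and 6.18 in scrib brains (at least 3.75-fold lower, adjusted p = 7.87e-05). The perlecan gene trol was 3.72-fold lower by its brightest probe set, but another of its 4 tested probe sets read 8.31, 8.40 and 8.28 in scrib discs, against 4.78, 6.27 and 6.45 in scrib brains (5.64-fold higher, adjusted p = 5.38e-05). The type IV collagen Col4a1 read 7.50, 7.26 and 7.10 in scrib discs, against 8.27, 8.93 and 8.38 in scrib brains (2.36-fold lower, adjusted p = 0.0095). The peroxidasin gene Pxn, made by hemocytes, was 3.72-fold lower.

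**Figure D2:**
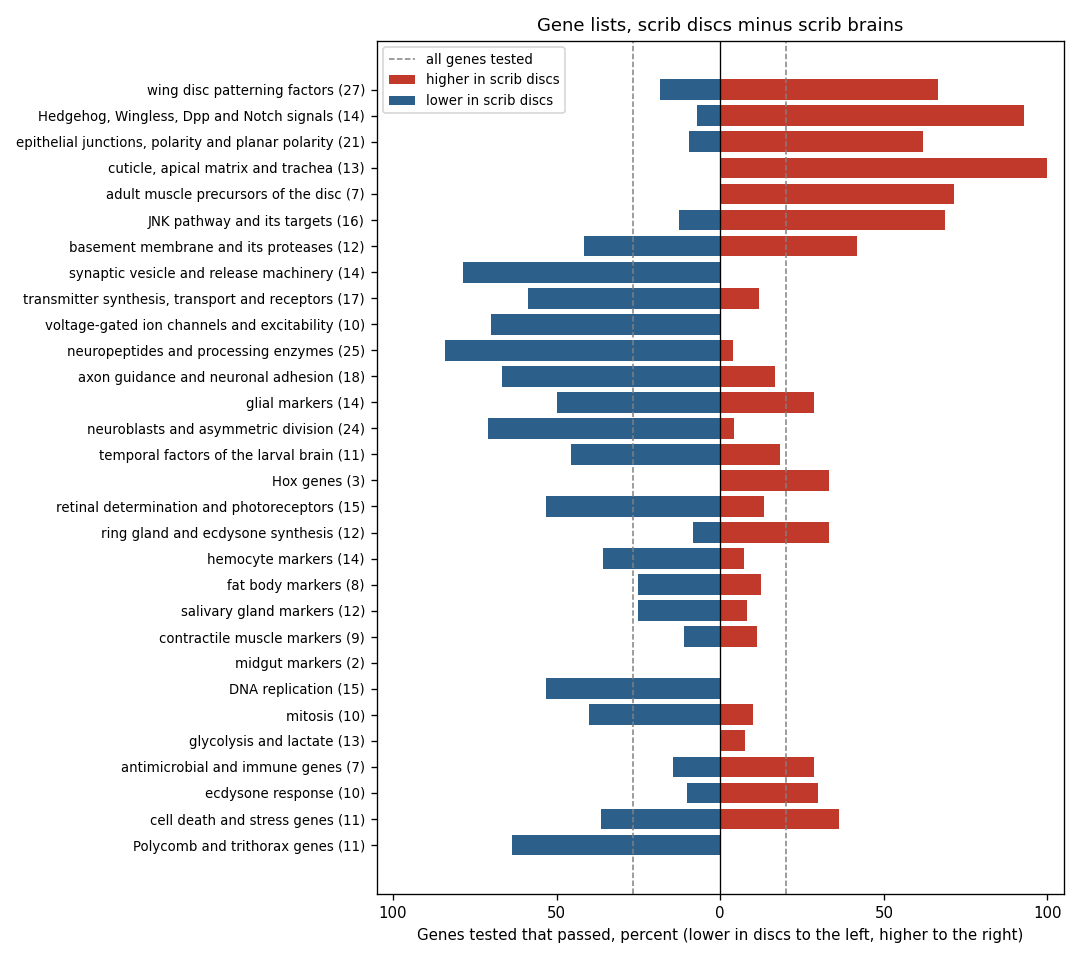
Share of the tested genes of each list that passed the test, in percent, higher in scrib discs to the right and lower to the left, with the number of genes tested in brackets. The dashed lines mark the 20.1% higher and 26.7% lower of all 7213 genes. All 13 cuticle, apical matrix and trachea genes were higher in discs, and 21 of 25 neuropeptide genes were lower.

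Most tested genes of each neuronal list were lower in scrib discs. Of the synaptic vesicle and release genes, 14 of 18 were tested, 11 were lower and 0 higher (median log2 difference -2.94). The complexin gene cpx, a brake on vesicle fusion, read 2.21, 2.21 and 2.58 in scrib discs, at or near the floor of the values, against 10.15, 10.22 and 10.72 in scrib brains (at least 82.3-fold lower, log2 difference -8.03 ± 0.75 SE, adjusted p = 1.42e-06). The vesicle protein synapsin, Syn, read 2.80, 2.40 and 2.37 in scrib discs, against 9.18, 9.20 and 9.31 in scrib brains (at least 37.6-fold lower). The priming factor unc-13 read 8.01, 7.88 and 7.87 in scrib discs, against 10.57, 10.21 and 10.80 in scrib brains (6.1-fold lower). The general secretion gene Rop overlapped, at 8.35, 8.36 and 8.61 in scrib discs and 8.29, 8.52 and 8.21 in scrib brains. Transmitter genes gave 10 lower and 2 higher of 17 tested genes of 20. The GABA-synthesis gene Gad1 read 2.25, 2.43 and 2.33 in scrib discs, against 10.16, 10.44 and 10.49 in scrib brains (at least 82.3-fold lower, log2 difference -8.03 ± 0.44 SE, adjusted p = 1.32e-08). The acetylcholine genes ChAT and VAChT were at least 19.6-fold and at least 23.8-fold lower, and the nicotinic receptor subunit nAChRbeta1 at least 39.9-fold lower. Both members higher in scrib discs were tyrosine decarboxylases. Tdc2, the neuronal one, read 6.16, 5.26 and 6.06 in scrib discs, against 3.23, 3.11 and 2.92 in scrib brains (at least 3.55-fold, adjusted p = 2.15e-05), and Tdc1 was 5.2-fold higher.

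Ion channel genes gave 7 lower and 0 higher of 10 tested genes of 18. The Shaker potassium channel gene Sh read 2.87, 2.75 and 2.66 in scrib discs, against 7.83, 7.69 and 7.45 in scrib brains (at least 12.6-fold lower, adjusted p = 3.41e-06), and the calcium channel cac was at least 10.4-fold lower. Neuropeptides and their processing enzymes gave 21 lower and 1 higher of 25 tested genes of 29, with a median log2 difference of -4.97. The peptide precursor Nplp1 read 3.19, 3.10 and 4.04 in scrib discs, against 10.89, 11.14 and 11.32 in scrib brains (at least 138-fold lower, log2 difference -7.68 ± 0.36 SE, adjusted p = 4.46e-09). FMRFa, a precursor made by a small set of peptidergic cells, read 2.21, 2.21 and 2.22 in scrib discs, against 8.06, 8.12 and 7.98 in scrib brains (at least 16.6-fold lower). The prohormone convertase amon was at least 25.7-fold lower, whereas the amidating enzyme gene Phm read 10.52, 10.26 and 10.32 in scrib discs and 10.55, 10.53 and 10.21 in scrib brains and overlapped, while its dimmer probe set was 1.56-fold higher (adjusted p = 0.0229). The one member higher in scrib discs was the ion transport peptide gene ITP, at 9.51, 9.44 and 9.24, against 8.44, 8.99 and 8.42 in scrib brains (1.72-fold, adjusted p = 0.0416), and that call was lost without any 1 of the 6 arrays other than scrib brain replicate 2 (adjusted p = 0.0592 to 0.124). Axon guidance and neuronal adhesion genes gave 12 lower and 3 higher of 18 tested genes of 26. The neuronal RNA-binding gene fne was at least 27.8-fold lower and the adhesion gene klg at least 13.1-fold lower, whereas the neuroglian gene Nrg, also a septate junction protein, was 3.04-fold higher in scrib discs by its brightest probe set and 4.52-fold lower by another (adjusted p = 4.86e-06). The teneurins Ten-a (1.9-fold) and Ten-m (1.73-fold) were the other two members higher in scrib discs, and both calls were lost without scrib disc replicate 3 (adjusted p = 0.0827 and 0.0573) and without scrib brain replicate 2 (adjusted p = 0.0548 and 0.0583).

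Neuroblast genes, among them the asymmetric division machinery, were mostly lower in scrib discs. Of 24 tested genes of 26, 17 were lower and 1 higher in scrib discs (median log2 difference -3.79), with the same counts when scrib disc replicate 3, scrib brain replicate 2 or scrib brain replicate 3 was left out. The adaptor mira, which carries fate determinants into the smaller daughter cell, read 3.71, 3.72 and 6.03 in scrib discs, against 12.68, 12.28 and 12.39 in scrib brains (at least 219-fold lower, log2 difference -7.97 ± 0.75 SE, adjusted p = 1.53e-06). The third scrib disc array was the highest of its group. The Snail-family factor wor, which marks neuroblasts, read 2.57, 2.73 and 2.99 in scrib discs, against 11.64, 11.08 and 11.98 in scrib brains (at least 189.6-fold lower). The homeodomain factor pros, which ends self-renewal in the daughter cell, read 2.28, 2.21 and 2.63 in scrib discs, against 10.21, 9.49 and 10.54 in scrib brains (at least 67.6-fold lower, adjusted p = 5.83e-08). The factors tll and D were at least 43.3-fold and at least 83.3-fold lower, and the proneural gene l(1)sc at least 8.34-fold lower. The exception was the proneural gene sc, which also sets bristle precursors in the wing disc, at 6.80, 6.26 and 6.72 in scrib discs, against 4.99, 4.30 and 4.80 in scrib brains (3.73-fold higher). The fate determinant numb, used in disc sensory organs too, overlapped at 10.46, 10.72 and 9.92 in scrib discs and 10.64, 10.19 and 10.87 in scrib brains.

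Temporal factors, which change as neuroblasts age, gave 5 lower and 2 higher of 11 tested genes of 14. The zinc-finger factor cas read 2.26, 2.47 and 2.25 in scrib discs, against 11.56, 11.54 and 11.70 in scrib brains (at least 194-fold lower, log2 difference -9.27 ± 0.55 SE, adjusted p = 2.61e-08). The RNA-binding gene Imp, a marker of young neuroblasts, went the other way, at 10.20, 9.95 and 10.58 in scrib discs, against 7.30, 7.13 and 7.41 in scrib brains (7.81-fold higher, adjusted p = 9.92e-06). The POU factor pdm2, neighbour and paralogue of nub, was also higher, at 6.46, 6.46 and 6.13 in scrib discs, against 2.27, 2.32 and 2.32 in scrib brains. The Imp target chinmo read 8.41, 8.64 and 8.66 in scrib discs and 7.78, 7.94 and 8.66 in scrib brains and did not pass the test (adjusted p = 0.316). Of 3 tested Hox genes, the thoracic gene Antp was higher in scrib discs (6.54-fold, adjusted p = 1.59e-05). Retinal determination and photoreceptor genes gave 8 lower and 2 higher of 15 tested genes of 24. The Pax6 gene toy read 2.21, 2.41 and 2.30 in scrib discs, against 8.88, 8.74 and 9.28 in scrib brains (at least 31.3-fold lower), and its partner ey was at least 27.8-fold lower. The optic lobe homeodomain gene Rx was at least 16.6-fold lower, whereas the Pax gene eyg, which also patterns the thoracic part of the disc, was higher in scrib discs, at 5.71, 4.70 and 5.69, against 2.21, 2.22 and 2.22 in scrib brains.

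Glial genes lay on both sides. Of 14 tested genes of 16, 7 were lower and 4 higher in scrib discs. The astrocyte gene alrm read 2.36, 3.13 and 3.14 in scrib discs, against 10.96, 11.23 and 11.09 in scrib brains (at least 137-fold lower, log2 difference -8.22 ± 0.62 SE, adjusted p = 1.98e-07). Glutamine synthetase, Gs2, read 4.28, 2.72 and 2.70 in scrib discs, against 10.08, 11.10 and 10.52 in scrib brains (at least 89-fold lower). The glial switch gene gcm was at least 25.1-fold lower, and the cortex glia gene wrapper at least 38.5-fold lower. Among members higher in scrib discs, the septate junction gene Gli, which epithelia also use, read 12.15, 12.06 and 12.08 in scrib discs, against 7.90, 9.18 and 8.07 in scrib brains (13.1-fold, adjusted p = 6.42e-07), and the citrate transporter Indy (3.49-fold), the innexin Inx2 (1.65-fold) and the blood-brain barrier receptor moody (1.66-fold) were higher. The call of moody was lost without any of scrib brain replicates 1 and 3 and scrib disc replicates 1 and 2 (adjusted p = 0.0525 to 0.0747).

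**Figure D3:**
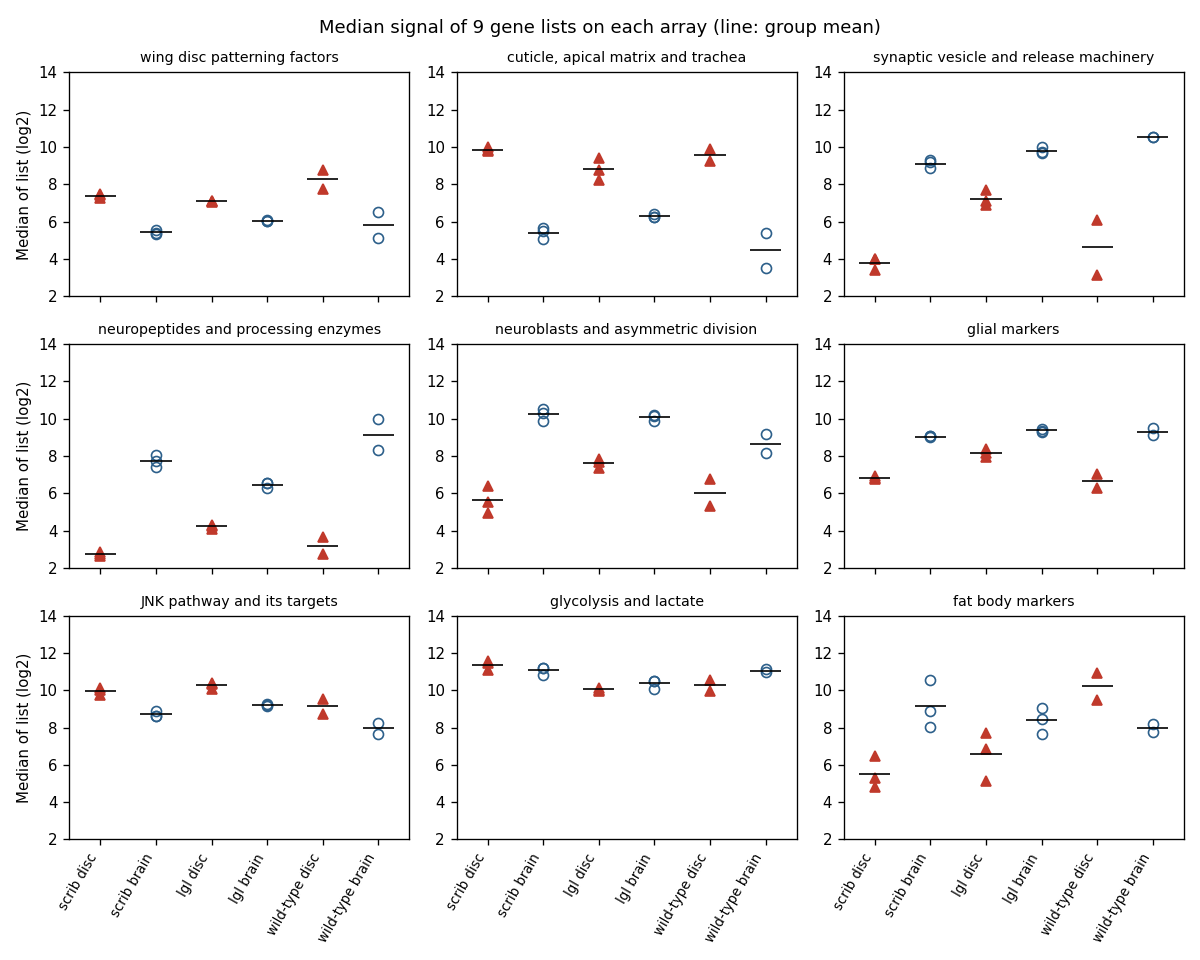
Median log2 signal of 9 gene lists on each array, in discs (filled triangles) and brains (open circles) of scrib, lgl and wild-type larvae, with the group mean as a line. Synaptic genes had medians of 3.97, 3.97 and 3.42 in scrib discs, against 9.29, 8.86 and 9.18 in scrib brains, and medians between 6.87 and 7.68 in lgl discs.

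Growth and metabolic genes were read next. The DNA replication list had 15 tested genes of 22, of which 8 were lower and 0 higher in scrib discs, with a median log2 difference of -0.43. The helicase subunit Mcm2 read 11.61, 11.54 and 11.64 in scrib discs, against 12.59, 12.25 and 12.45 in scrib brains (1.78-fold lower, log2 difference -0.83 ± 0.15 SE, adjusted p = 0.000519), and Mcm6 read 11.83, 11.80 and 11.82 in scrib discs and 11.89, 11.88 and 12.01 in scrib brains (adjusted p = 0.616). Mitotic genes gave 4 lower and 1 higher of 10 tested genes of 17, and 3 lower and 0 higher without scrib brain replicate 2 or without scrib brain replicate 3. The cyclin CycB3 read 10.22, 10.18 and 10.04 in scrib discs, against 11.87, 11.74 and 11.76 in scrib brains (3.12-fold lower, adjusted p = 1.64e-05), while CycB overlapped, at 11.86, 11.82 and 11.85 in scrib discs and 11.93, 11.48 and 11.88 in scrib brains. Glycolysis genes gave 1 higher and 0 lower of 13 tested genes of 16, the hexokinase Hex-A, at 9.26, 9.07 and 9.67 in scrib discs, against 8.47, 8.67 and 8.08 in scrib brains (1.9-fold, adjusted p = 0.00546). Enolase, Eno, read 13.30, 13.08 and 13.54 in scrib discs and 13.10, 13.47 and 13.51 in scrib brains. Polycomb and trithorax genes, which keep chromatin states, gave 7 lower and 0 higher of 11 tested genes of 16, a count of 4 lower without scrib brain replicate 3. The repressor subunit Pc read 7.60, 7.38 and 7.57 in scrib discs, against 9.18, 8.84 and 9.32 in scrib brains (3.03-fold lower, adjusted p = 8.96e-05).

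Ecdysone response genes were 3 higher and 1 lower of 10 tested genes of 17, with 0 lower without scrib disc replicate 3 or scrib brain replicate 3 and 2 lower without scrib brain replicate 2. ImpL2, a secreted antagonist of insulin-like peptides, read 13.97, 13.20 and 13.77 in scrib discs, against 9.13, 9.56 and 9.22 in scrib brains (20.3-fold, log2 difference 4.34 ± 0.41 SE, adjusted p = 1.61e-06). The ecdysone receptor EcR was 2.43-fold higher. The ring gland and ecdysone synthesis list had 4 higher and 1 lower of 12 tested genes of 16. Its steroid enzyme spok, made in the prothoracic gland, read 2.26, 2.26 and 2.33 in scrib discs, against 3.90, 6.17 and 7.34 in scrib brains, and its call was lost without any 1 of the 6 arrays other than scrib brain replicate 1 (adjusted p = 0.0902 to 0.159). Cell death and stress genes were 4 higher and 4 lower of 11 tested genes of 21. The glutathione transferase GstD1 read 14.75, 14.74 and 14.94 in scrib discs, against 12.79, 13.70 and 13.11 in scrib brains (3.05-fold, adjusted p = 2.68e-05), and the stress bZIP gene Irbp18 was 2.67-fold higher. The death gene skl read 2.93, 2.66 and 2.73 in scrib discs, against 9.24, 8.64 and 8.75 in scrib brains (at least 29.3-fold lower), and the small heat shock gene Hsp27 was 3.06-fold lower. Antimicrobial and immune genes gave 2 higher and 1 lower of 7 tested genes of 18. The cecropin CecB read 5.11, 5.18 and 5.07 in scrib discs, against 2.31, 2.40 and 2.40 in scrib brains (at least 2.17-fold, adjusted p = 2.32e-08), and the defensin Def read 4.30, 6.17 and 2.26 in scrib discs, against 6.94, 9.93 and 8.30 in scrib brains (at least 11.9-fold lower).

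Markers of tissues that could have been carried along in dissection varied between arrays. Fat body genes gave 1 higher and 2 lower of 8 tested genes of 12 (0 higher without scrib brain replicate 3), and their summed linear signal ran from 7083 to 9303 in scrib discs, against 10361 to 32005 in scrib brains. The storage protein Lsp2 read 8.77, 9.10 and 9.10 in scrib discs, against 8.60, 10.68 and 13.90 in scrib brains, so scrib brain replicate 1 lay below every disc and replicate 3 far above them (adjusted p = 0.225). The lipoprotein apolpp, also made by glia, read 4.39, 4.33 and 5.67 in scrib discs, against 12.18, 12.44 and 12.63 in scrib brains, with little spread among brains (log2 difference -7.62 ± 0.61 SE, adjusted p = 3.78e-07). Salivary gland genes gave 1 higher and 3 lower of 12 tested genes of 13 (0 higher without any of scrib disc replicate 3, scrib brain replicate 2 and scrib brain replicate 3), with sums from 344 to 846 in scrib discs, against 675 to 8754 in scrib brains. The new-glue gene ng1 read 2.21, 2.21 and 2.45 in scrib discs, against 6.23, 8.29 and 10.24 in scrib brains (at least 19.1-fold lower, adjusted p = 0.000357), and ng3 was at least 36.1-fold lower. Without scrib brain replicate 3 the 3 lower calls remained in number and the list's median log2 difference was -0.70, against -2.06 with it. Hemocyte genes gave 1 higher and 5 lower of 14 tested genes of 15 (2 higher without scrib brain replicate 3), with sums from 2113 to 2818 in scrib discs, against 2229 to 3703 in scrib brains. The phenoloxidase PPO2 read 7.22, 6.78 and 6.02 in scrib discs, against 9.06, 10.43 and 8.95 in scrib brains (6.98-fold lower, adjusted p = 0.00134). Of 9 tested contractile muscle genes of 15, 1 was higher and 1 lower, and neither of the 2 tested midgut genes of 12 passed the test. The part of these tissues in the differences above was not tested.

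The tissue difference of scrib larvae was set beside that of wild-type larvae, which share no array with it. Genotype and age change together in this comparison. Over all 8819 probe sets the log2 differences correlated with Pearson's r 0.82 and Spearman's rho 0.71, across probe sets, which are not independent replicates. Of the 1812 probe sets higher in wild-type discs than in wild-type brains, 1152 (63.58%, and 64.86% of those higher in scrib discs) were also higher in scrib discs, 32 were lower and 628 were not called. Of the 1963 lower in wild-type discs, 1441 (73.41%, and 62.73% of those lower in scrib discs) were also lower in scrib discs, 40 were higher and 482 were not called. The difference between genotypes itself was called for 996 probe sets (11.3%), 558 (6.33%) more positive and 438 (4.97%) more negative in scrib. Weighting arrays by group gave 137, and leaving out wild-type brain replicate 2 gave 2255.

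**Figure D4:**
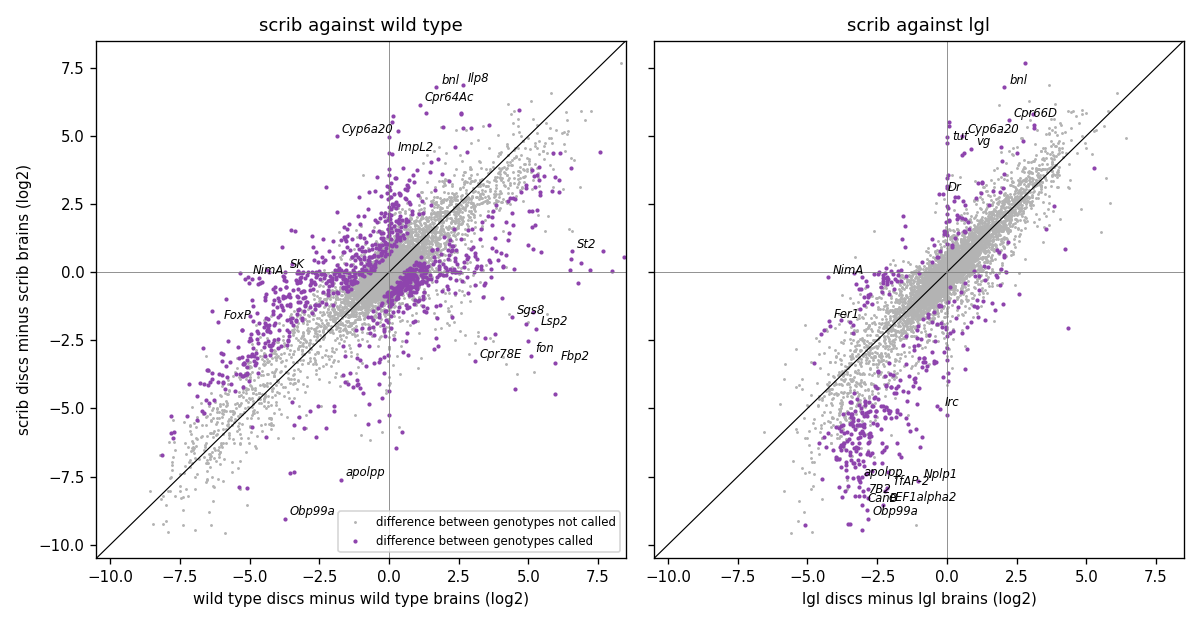
Log2 difference of discs minus brains in scrib larvae (vertical axis) against the same difference in wild type (left) and lgl larvae (right), 1 point for each of 8819 probe sets, with the line of equal difference. Purple points passed the test of the difference between genotypes, 996 at left and 426 at right, and the labelled genes are the 8 largest called each way.

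Genes with a more disc-biased difference in scrib larvae were led by bnl, Cyp6a20, Cpr64Ac, Ilp8 and ImpL2. The difference of bnl was 6.78 ± 0.35 SE log2 in scrib, against 1.70 ± 0.42 SE in wild type (difference between them 5.08 ± 0.55 SE, adjusted p = 0.000101). Ilp8 gave 6.85 ± 0.67 SE in scrib, against 2.65 ± 0.82 SE in wild type (4.21 ± 1.06 SE, adjusted p = 0.0237), and ImpL2 gave 4.34 ± 0.41 SE, against 0.12 ± 0.50 SE in wild type (4.23 ± 0.65 SE, adjusted p = 0.00144). The cytochrome gene Cyp6a20 read 8.97, 8.55 and 9.50 in scrib discs, against 3.55, 3.58 and 4.92 in scrib brains, a difference of 4.99 ± 0.65 SE, against -1.88 ± 0.80 SE in wild type (adjusted p = 0.00122). Of the genes named here, 6 were called in opposite directions in scrib and wild type: moody, FASN1, Hex-A, ITP, dpa and bi. The barrier receptor moody was higher in scrib discs by 0.73 log2 and lower in wild-type discs, at -2.64 (3.37 ± 0.38 SE, adjusted p = 0.00013). The fatty acid synthase FASN1 gave 0.57 in scrib, against -2.01 in wild type (2.58 ± 0.28 SE, adjusted p = 0.000101), and Hex-A gave 0.93, against -0.96 in wild type (1.89 ± 0.37 SE, adjusted p = 0.00649). In scrib the call of FASN1 was lost without scrib brain replicate 1, scrib brain replicate 3 or scrib disc replicate 1 (adjusted p = 0.0536 to 0.0786). With 1 of the 6 scrib arrays left out, the scrib calls of ITP, moody and bi were lost in 5, 4 and 4 fits. Those of Hex-A and dpa were kept. Imp gave 2.96, against -0.51 in wild type (3.47 ± 0.54 SE, adjusted p = 0.00153), and Tdc2 gave 2.74, against -1.08 in wild type (adjusted p = 0.000904). Array weights by group ended the difference between genotypes for bnl (adjusted p = 0.0552), Ilp8 (0.364), ImpL2 (0.117), Hex-A (0.209) and Imp (0.117), and leaving out wild-type disc replicate 1 ended that of Ilp8 too (adjusted p = 0.0763). The call of Cpr64Ac was lost with array weights (adjusted p = 0.549), with no filter (0.0779), and without any of scrib brain replicate 3, scrib disc replicates 1 and 3, wild-type brain replicate 1 and wild-type disc replicate 2 (adjusted p = 0.0507 to 0.0558). A fit with no filter also ended the call of Ilp8 (adjusted p = 0.0761).

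Among the lists, transmitter genes had 8 members with a more positive and 0 with a more negative difference in scrib than in wild type, of 17, set beside 6.14% and 5.05% of all genes. The median difference of these genes was -1.38 log2 in scrib, -1.44 in lgl and -3.30 in wild type. Neuroblast genes had 0 more positive and 7 more negative of 24, with median differences of -3.79 in scrib, -2.20 in lgl and -0.99 in wild type. The DNA replication list had 0 more positive and 5 more negative of 15: its helicase gene dpa gave -0.62 in scrib, against 0.63 in wild type (-1.24 ± 0.23 SE, adjusted p = 0.00529, 0.152 with array weights by group). The same list had 0 members higher and 8 lower in scrib discs than scrib brains, and 5 higher and 0 lower in wild-type discs than wild-type brains, where 20.6% of all genes were higher and 22.3% lower in discs. In lgl the list had 2 higher and 2 lower in discs, where 20.5% of all genes were higher and 24.0% lower. Its median signal was 10.39 to 10.48 log2 in scrib discs, against 10.27 and 10.28 in wild-type discs. In brains it was 10.85 to 11.10 in scrib, against 9.65 and 10.05 in wild type, so the tissue levels differed mainly in brains. Mitotic genes likewise had 1 higher and 4 lower in scrib, and 2 higher and 5 lower in lgl, against 6 higher and 0 lower in wild type. Their median was 10.16 to 10.21 in scrib discs and 10.41 and 10.21 in wild-type discs. In brains it was 10.94 to 11.10 in scrib, against 9.64 and 10.09 in wild type. Glycolysis genes had 1 higher and 0 lower in scrib, against 0 higher and 9 lower in wild type, with 3 members more positive in scrib by the test of the difference. The glycolysis count in lgl was 0 higher and 4 lower. The largest negative differences were in the fat body genes Fbp2 (-9.31 ± 2.31 SE, adjusted p = 0.022) and Lsp2 (-7.33 ± 2.09 SE, adjusted p = 0.0407). Lsp2 averaged 13.31 ± 2.16 in wild-type discs and 8.04 ± 0.80 in wild-type brains (SD, n = 2 each). The fat body list stood at 1 more positive (FASN1) and 3 more negative of 8. The call of Lsp2 was lost in 7 of 10 fits with 1 array left out, all but those without scrib brain replicate 1, wild-type brain replicate 2 or wild-type disc replicate 2 (adjusted p = 0.0604 to 0.115). That of Fbp2 was lost without scrib disc replicate 2, wild-type brain replicate 1 or wild-type disc replicate 1 (adjusted p = 0.0505 to 0.073). Array weights by group ended both (adjusted p = 0.396 for Fbp2 and 0.489 for Lsp2), as did a fit with no filter (0.0729 and 0.12).

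**Figure D5:**
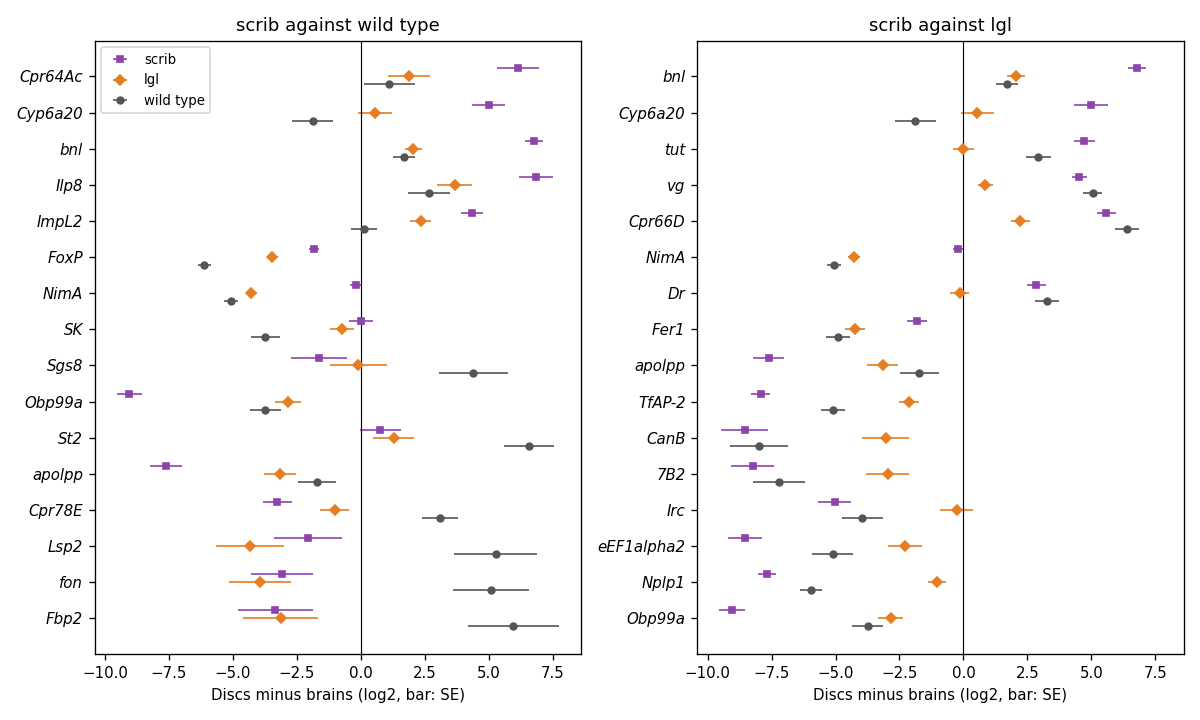
Log2 difference of discs minus brains (point, with its SE) in scrib, lgl and wild-type larvae for the 8 largest called differences between genotypes each way, scrib against wild type at left and scrib against lgl at right. For bnl the difference is 6.78 in scrib, against 2.06 in lgl and 1.70 in wild type.

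The comparison with lgl larvae held age fixed and also shares no array. The log2 differences correlated with Pearson's r 0.88 and Spearman's rho 0.86 across probe sets. Their SD across probe sets was 1.79 in scrib, 1.42 in lgl and 1.99 in wild type. In lgl larvae 3939 probe sets (44.7%) and 44.6% of the genes were called. Of the 1792 probe sets higher in lgl discs than in lgl brains, 1410 (78.68%, and 79.39% of those higher in scrib discs) were also higher in scrib discs, and of the 2147 lower in lgl discs 1701 (79.23%, and 74.05% of those lower in scrib discs) were also lower in scrib discs. The difference between genotypes was called for 426 probe sets (4.83%), 128 (1.45%) more positive and 298 (3.38%) more negative in scrib, and for 4.85% of the genes. Weighting arrays by group gave 849, a fit of the 12 mutant arrays alone 769 and a test of every probe set 273.

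Genes with a more negative difference in scrib than in lgl included neuronal, glial and basement membrane genes. Neuropeptide genes had 9 more negative and 0 more positive of 25, set beside 3.62% and 1.23% of all genes. The median difference of that list was -4.97 log2 in scrib, -2.20 in lgl and -5.96 in wild type. Against wild type, 1 of its members was more negative and 3 more positive in scrib. Nplp1 gave -7.68 ± 0.36 SE in scrib, against -1.02 ± 0.36 SE in lgl (difference between them -6.66 ± 0.51 SE, adjusted p = 1.93e-05). Its mean was 3.44 in scrib discs, against 8.83 in lgl discs, and 11.12 in scrib brains, against 9.85 in lgl brains. Gad1 gave -8.03 in scrib, against -2.21 in lgl (-5.81 ± 0.62 SE, adjusted p = 0.000126), with 2.34 in scrib discs and 7.61 in lgl discs. The eye factor toy gave -6.66, against -1.73 in lgl (-4.93 ± 0.51 SE, adjusted p = 0.000107), and pros gave -7.71, against -3.11 in lgl (-4.60 ± 0.71 SE, adjusted p = 0.00194). The glial gene Gs2 gave -7.34, against -2.12 in lgl (-5.22 ± 0.65 SE, adjusted p = 0.000414), and Obp99a gave -9.05, against -2.84 in lgl (-6.21 ± 0.70 SE, adjusted p = 0.000209). In wild type the difference of toy was -6.45, near that of scrib. Gs2 and Obp99a were more negative in scrib than in wild type as well (-3.93 and -5.30). Basement membrane genes had 5 more negative of 12, Mmp2 among them (-2.95 in scrib, against -0.53 in lgl, adjusted p = 0.038) and Col4a1 as well (-1.24, against 0.98 in lgl, adjusted p = 0.0182). Col4a1 was thus called in opposite directions in scrib and lgl, although with no filter its call between genotypes was lost (adjusted p = 0.0744). Hemocyte genes had 2 more negative and 0 more positive of 14, with a median of -1.78 for scrib minus lgl, and their summed signal ran from 2113 to 2818 in scrib discs, against 6470 to 7806 in lgl discs. In brains the sums were 2229 to 3703 in scrib and 2303 to 4399 in lgl, and the part of hemocytes in the basement membrane differences was not tested. The call of Mmp2 was lost without any 1 of the 12 mutant arrays other than lgl disc replicate 2 (adjusted p = 0.0567 to 0.0962).

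Genes with a more disc-biased difference in scrib than in lgl were led by bnl, Cyp6a20, tut, vg and Cpr66D. With no filter the call of Cyp6a20 was lost (adjusted p = 0.0679). The wing selector vg gave 4.53 ± 0.31 SE in scrib, against 0.86 ± 0.31 SE in lgl (3.67 ± 0.43 SE, adjusted p = 0.000305). Its level was 9.41 in scrib discs and 8.91 in lgl discs, whereas it was 4.88 in scrib brains and 8.05 in lgl brains. In wild type the difference of vg was 5.05, near that of scrib. The dimmer probe set of vg gave 3.28 in scrib, 1.13 in lgl and 4.50 in wild type. The homeodomain gene Dr, which marks dorsal and neural territories, gave 2.86 in scrib, against -0.15 in lgl (3.01 ± 0.54 SE, adjusted p = 0.00563), and 7.84 in scrib brains, against 9.94 in lgl brains. bnl gave 6.78, against 2.06 in lgl (4.72 ± 0.49 SE, adjusted p = 0.000107), and its level was 9.63 in scrib discs, 4.43 in lgl discs and 4.07 in wild-type discs. The difference of the cecropin CecB was 2.74 in scrib, against 0.38 in lgl (2.36 ± 0.23 SE, adjusted p = 5.53e-05) and 0.07 log2 in wild type (2.67 ± 0.25 SE, adjusted p = 4.58e-05). The difference of Ilp8, 6.85 in scrib and 3.67 in lgl, did not pass the test between genotypes (adjusted p = 0.0824).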

How the data were processed

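The authors deposited log2 signals made with GCRMA, per the submitters' processing notes (version not given in the sources used here), a method that corrects background, normalizes between arrays and summarises probes. The deposited log2 values share a floor of 2.21, and 18952 probe sets were read on 16 arrays. A single gene symbol was listed for 13647, several for 402 and none for 4720, and 183 were controls. The probe annotation gave the names, and 13544 matched a RefSeq table by gene ID.

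From those values, 8819 probe sets at or above 4 on at least 2 arrays entered limma 3.58.1 (R 4.3.3) in 1 model with a mean for each of 6 groups and 10 residual degrees of freedom. Calls have a Benjamini-Hochberg adjusted p below 0.05 within a contrast. Where an array of the dimmer group lay below 4 it was set to 4, and the fold is then written "at least". Folds are left out for genes with both means below 4. Each of 7213 genes is read from its brightest probe set, and probe sets that disagree are named in the text. Levels of different genes are not compared.

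By rule, the text names scrib and l(2)gl, the 12 largest called differences each way between arrays that do not overlap, and up to 5 list members with the smallest adjusted p. It also names called members against their list's direction, the 8 largest called interactions each way, Ilp8, and up to 2 members per list with the smallest difference. The members and lists were chosen with earlier results of these data known.

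On simulated data with 100 planted changes of each size among 8819 probe sets, the scrib contrast recovered 46% at 1 log2 and 94% at 2 log2. The contrast with wild type recovered 16% and 62%, and that with lgl 25% and 79%. Of simulated calls, 7.29%, 8.24% and 7.97% were false. The simulation gave every group the same mean and the same SD per probe set, with changes planted only in scrib discs, among brighter probe sets. Far fewer probe sets changed there than the 46.2% called in the data. The real wild-type groups also spread more, with a pooled SD of 0.65 to 0.66. These rates therefore do not carry over to the real contrasts, least of all to that with wild type.

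The alternatives changed the filter (none, or 6), the variance (trended and robust), the normalization (quantile), the weighting of arrays (by group) and the block (replicate number). Others used 1 probe set per gene, a required fold of 2, fits on the 6 scrib or 12 mutant arrays, the probe set of lowest adjusted p for list counts, and each array left out. List counts without the 3 libraries that stood apart were added after the data were seen.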

Additional observations from a re-analysis of the deposited data

Results flagged for a closer look

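Both comparisons of the scrib tissue difference with another genotype gave results that differed by a test of the difference itself, an interaction of tissue and genotype in limma. They comprised 996 probe sets for scrib against wild type and 426 for scrib against lgl. Values in brackets are the difference between the tissue differences on the log2 scale, scrib minus the other genotype, and a positive value means more disc-biased in scrib. No explanation of these differences was tested.

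Against wild type, the hormone gene Ilp8 (4.21) and the growth factor gene bnl (5.08) were more disc-biased in scrib. The insulin antagonist gene ImpL2 (4.23) and the ecdysone-inactivating cytochrome gene Cyp18a1 (3.27) were more disc-biased too. So were the Jun gene Jra and others used in disc tissue, Jra (1.25), Nox (1.28) and htl (1.57), and the cuticle, cytochrome and cecropin genes Cpr64Ac (5.04), Cyp6a20 (6.87) and CecB (2.67). A mixed group of barrier, metabolic, peptide, temporal and neuronal genes was also more positive, moody (3.37), FASN1 (2.58), Hex-A (1.89), ITP (2.93), Imp (3.47), chinmo (2.74), Tdc2 (3.82) and Syn (1.45). More negative in scrib were the cell cycle and optic lobe genes Mcm2 (-1.14), dpa (-1.24), CycB3 (-1.30) and Rx (-3.47), and the disc patterning and polarity genes hh (-1.77), fj (-2.86), Doc3 (-1.72), Sp1 (-2.93) and bi (-1.55). The fat body list had 1 gene more positive (FASN1, above) and 3 more negative of 8, and the hemocyte list 0 and 3 of 14, among them Fbp2 (-9.31), Lsp2 (-7.33), apolpp (-5.90), PPO1 (-4.45) and PPO2 (-4.41). The remaining values were Obp99a (-5.30), Gs2 (-3.93) and Hsp27 (-1.67). With 1 of 10 scrib and wild-type arrays left out, the call of Nox was lost in 8 fits, all but those without scrib disc replicate 2 or wild-type brain replicate 2. That of Lsp2 was lost in 7, that of Cyp18a1 in 6 (kept without scrib brain replicate 2, scrib disc replicate 1, wild-type brain replicate 2 or wild-type disc replicate 2) and that of Cpr64Ac in 5. Hsp27 was lost in 5 as well, without scrib brain replicate 1 or 3, scrib disc replicate 2, wild-type brain replicate 1 or wild-type disc replicate 2. Fbp2, Syn and hh lost theirs in 3 fits each, Syn without scrib disc replicate 1, hh without scrib disc replicate 3, and both without wild-type brain replicate 1 or wild-type disc replicate 2. Sp1 lost its call without wild-type brain replicate 1, and Ilp8 without wild-type disc replicate 1. The replicate block ended the calls of Nox (adjusted p = 0.057), Cyp18a1 (0.0543) and Sp1 (0.0648), and array weights by group ended 27 of the 35.

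Against lgl, the genes more disc-biased in scrib were bnl (4.72), Cyp6a20 (4.44), tut (4.73), vg (3.67), Cpr66D (3.36), Dr (3.01), CecB (2.36) and htl (1.28). Peptide genes were more negative, Nplp1 (-6.66), FMRFa (-4.50), amon (-2.92) and 7B2 (-5.26), as were transmitter and synaptic genes, Gad1 (-5.81), ChAT (-2.06), nAChRbeta1 (-3.68), Syn (-3.96) and cpx (-5.02). Neuroblast, temporal and eye factors gave pros (-4.60), cas (-4.19), D (-3.94), toy (-4.93) and ey (-2.58). Glial and odorant-binding genes gave Gs2 (-5.22), alrm (-5.06), wrapper (-2.99) and Obp99a (-6.21). Basement membrane genes and a Notch target gave Col4a1 (-2.22), Mmp2 (-2.42), trol (-1.53, by its brightest probe set) and E(spl)m4-BFM (-2.60). The remaining values were apolpp (-4.46), PPO2 (-3.51), CanB (-5.53) and eEF1alpha2 (-6.25). With 1 of 12 mutant arrays left out, 8 of the 34 calls were lost in some fit. ChAT lost its call in 11 fits, all but that without lgl disc replicate 3 (adjusted p = 0.0775 to 0.118), as did E(spl)m4-BFM in all but that without scrib disc replicate 1, and Mmp2 in all but that without lgl disc replicate 2. CanB lost its call in 10 fits (kept without lgl disc replicate 3 or scrib disc replicate 3), trol in 9 (kept without lgl disc replicate 1, scrib brain replicate 1 or scrib disc replicate 2) and htl in 9 (kept without scrib brain replicate 1 or 2 or scrib disc replicate 3). In 6 fits each, 7B2 lost its call without lgl brain replicate 1 or 2, lgl disc replicate 2, scrib brain replicate 2 or 3 or scrib disc replicate 1, and PPO2 without lgl brain replicate 3, lgl disc replicate 1 or 2, scrib brain replicate 2 or scrib disc replicate 2 or 3. The replicate block ended the call of trol (adjusted p = 0.0645). A fit with no filter ended the calls of these 8 genes (adjusted p = 0.097 to 0.163) and of Col4a1 (0.0744), Cyp6a20 (0.0679), cpx (0.0748) and wrapper (0.0604). Quantile normalization ended those of wrapper (0.0724), 7B2, CanB, E(spl)m4-BFM, Mmp2, htl and trol. ChAT lost its call in the fit on the 12 mutant arrays (0.0578) and with array weights by group (0.0637), and htl with trended and robust variance (0.0501).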

How the results depend on the processing

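The count of 4073 called probe sets between scrib discs and scrib brains was 2548 when a fold of at least 2 was also required, and 3510 to 3817 with 1 array left out. Quantile normalization gave 4217, of which 51.81% were higher in discs, against 43.6% without it. The count of 996 for scrib against wild type was 137 with array weights by group, and 730 to 2255 with 1 array left out, the highest without wild-type brain replicate 2. The count of 426 for scrib against lgl was 273 with no filter, 769 in the fit on the 12 mutant arrays and 849 with array weights by group, and 308 to 402 with 1 array left out. Where a wild-type array was left out, the lone array is assumed to vary like the other groups. The cause of these shifts was not tested. Same-numbered arrays correlated in their deviations at -0.04, -0.02 and -0.11 in scrib and 0.0779, -0.0015 and 0.0824 in lgl. Both wild-type pairs gave 0.43, which is a single value, because the deviations of 2 arrays from their mean mirror each other. The labels give no pairing, so the fit has no block. With the replicate block the 3 counts were 4470, 1286 and 439.

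Of 127 genes named as called between scrib discs and scrib brains, 118 kept their call in every alternative run and 9 lost it in some: FASN1, ITP, Ten-a, Ten-m, bab1, bi, ct, moody and spok. Fbp2 gained a call without scrib brain replicate 1, and l(2)gl gained one in the fit on the 6 scrib arrays. Of 35 named differences against wild type, 8 kept their call in every alternative run, and of 34 against lgl, 22 did. No named difference reversed. Without scrib brain replicate 3, 4 Polycomb and trithorax genes were lower in scrib discs, against 7 with it. The filter, the SD of the wild-type arrays and signals near the floor limit what can be called.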

Other observations

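Genes of chromosome 4, the smallest autosome of the fly, had lower values in scrib discs more often than higher ones. Of 59 tested genes assigned to chromosome 4 by the RefSeq table, 7 were higher and 28 lower in scrib discs than in scrib brains. That was 59.32% called, with a median log2 difference of -0.41. Of all genes 46.8% were called, 20.1% higher and 26.7% lower. The X chromosome and the 4 large autosomal arms also had more lower than higher genes, and their medians lay between -0.12 and -0.08. This grouping was made after the values were seen, and no test compared it with other genes.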
